A study of Mus musculus with 16 samples.

Results

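Trpm5, Pou2f3, Chat, Il25, Gfi1b and Plcb2, which mark tuft-type microvillous cells, and Ascl3, Foxi1 and Cftr, which mark ionocyte-like cells, were followed through the olfactory mucosa of odor-exposed mice. These 9 genes were taken by name from the 19505 genes that the array's annotation names, and each had 1 probe set. The mice carried the S100a5-tauGFP allele, in which the promoter of S100a5, a gene transcribed by active olfactory sensory neurons, drives a fluorescent tau fusion, so GFP+ cells are enriched in recently active neurons. The mice, 24 animals of both sexes aged 7 to 12 weeks, lived in clean air chambers for 40 h at 3.1 L per min, and from 26 h on received 10 s pulses every 20 min of octanoic acid or of filtered air. Mucosa of 3 mice was pooled and sorted, which gave 4 GFP+ and 4 GFP- samples with octanoic acid and 4 GFP+ and 4 GFP- samples with clean air, 16 Clariom S arrays in all. All 4 groups thus share the reporter, the chamber and the dissociation, and each sample is a pool, so animals cannot be told apart. GFP- cells are whatever the gate left, including neurons without recent activity. The summed signal of 7 mature neuron markers was 20.79 to 21.05 log2 in GFP+ and 20.81 to 20.98 in GFP- cells with octanoic acid, and 20.995 to 21.04 and 20.63 to 20.92 with clean air, where the groups did not overlap.

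Microvillous cells are sparse epithelial cells that lie among the olfactory neurons and are not neurons. The tuft type carries a taste-like signalling chain, in which receptors act through the phospholipase Plcb2 and calcium release on the cation channel Trpm5, is specified by the transcription factor Pou2f3, and can release acetylcholine, the cytokine Il25 and lipid mediators. Ionocytes are named for their ion transport: Foxi1 is their master transcription factor, Ascl3 marks them and related microvillous cells, and Cftr is the chloride channel mutated in cystic fibrosis. The sort gates on a neuronal reporter and was not designed to isolate either type.

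The RefSeq promoter table (GRCm38.p6, 250 bases before to 50 after the transcription start) held 7 of the 9 genes; Pou2f3 and Il25 were not matched. The promoters of Trpm5 and Foxi1, the genes with the widest difference in each class, and of Ascl3 are shown because the 9 genes were lower together in GFP+ cells. Each was searched on both strands for the letters ATGCAAAT, the octamer that POU factors bind, for its shorter form ATGCAAA, which lies inside it, for the forkhead letters GTAAACA and for the E-box CAGCTG, and capitals mark any match.
Trpm5, chr7:143094593-143094892, minus strand: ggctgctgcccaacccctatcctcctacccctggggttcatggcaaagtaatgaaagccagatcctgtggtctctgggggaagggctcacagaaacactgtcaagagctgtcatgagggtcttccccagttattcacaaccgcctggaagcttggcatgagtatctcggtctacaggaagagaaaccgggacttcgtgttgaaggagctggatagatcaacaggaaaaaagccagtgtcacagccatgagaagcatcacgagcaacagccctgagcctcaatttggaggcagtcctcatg
Foxi1, chr11:34208040-34208339, minus strand: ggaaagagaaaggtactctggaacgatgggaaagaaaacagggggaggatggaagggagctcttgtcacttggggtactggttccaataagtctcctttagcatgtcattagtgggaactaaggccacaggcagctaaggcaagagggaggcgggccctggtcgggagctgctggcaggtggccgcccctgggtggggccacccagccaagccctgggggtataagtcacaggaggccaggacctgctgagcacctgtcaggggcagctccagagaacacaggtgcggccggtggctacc
Ascl3, chr7:109731683-109731982, minus strand: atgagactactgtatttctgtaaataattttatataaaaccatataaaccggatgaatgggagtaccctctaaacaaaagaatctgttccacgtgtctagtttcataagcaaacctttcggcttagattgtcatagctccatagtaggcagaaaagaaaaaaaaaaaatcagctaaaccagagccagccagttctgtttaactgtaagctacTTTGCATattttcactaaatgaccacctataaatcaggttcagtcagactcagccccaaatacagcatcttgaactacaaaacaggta
The Ascl3 window held 1 match to the shorter octamer, starting 38 bases before the start, and the windows of Trpm5 and Foxi1 held none of the searched letters. Among the 7 promoters ATGCAAAT was found in 0, ATGCAAA in 1, GTAAACA in 0 and CAGCTG in 1, that of Chat. The shares of all 32851 promoter windows with these letters were 1.74%, 4.63%, 3.65% and 16.3%. A match describes the letters in the window only.

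The comparison of GFP+ with GFP- cells asks in which sorted fraction the RNA of these genes lay. Genes of both classes were lower in GFP+ cells in both treatments. With octanoic acid 8 of the 9 passed limma's test as lower at an adjusted p of 0.05 and Cftr did not, while 10.9% of all 19505 genes passed as lower. With clean air all 9 passed as lower, against 9.58% of all genes. In each treatment 2 of the 9 had even their GFP- cells at the background, as defined below. These were Chat and Il25 with octanoic acid, and Chat and Ascl3 with clean air. The median difference of the 9 was -1.60 log2 with octanoic acid and -2.54 with clean air, while the median over all genes was 0.11 in each. Signal was lower in the GFP+ array of a pool in 36 of 36 gene and pool pairs with octanoic acid and in 35 of 36 with clean air. The 9 genes of a pool were read on the same arrays, so these pairs are not independent. In 8 of 9 genes in each treatment all GFP+ arrays lay below all GFP- arrays, and 10.7% of all genes did so in each. Arrays of sorted pools cannot tell fewer cells of a type from less RNA per cell.

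**Figure D1:**
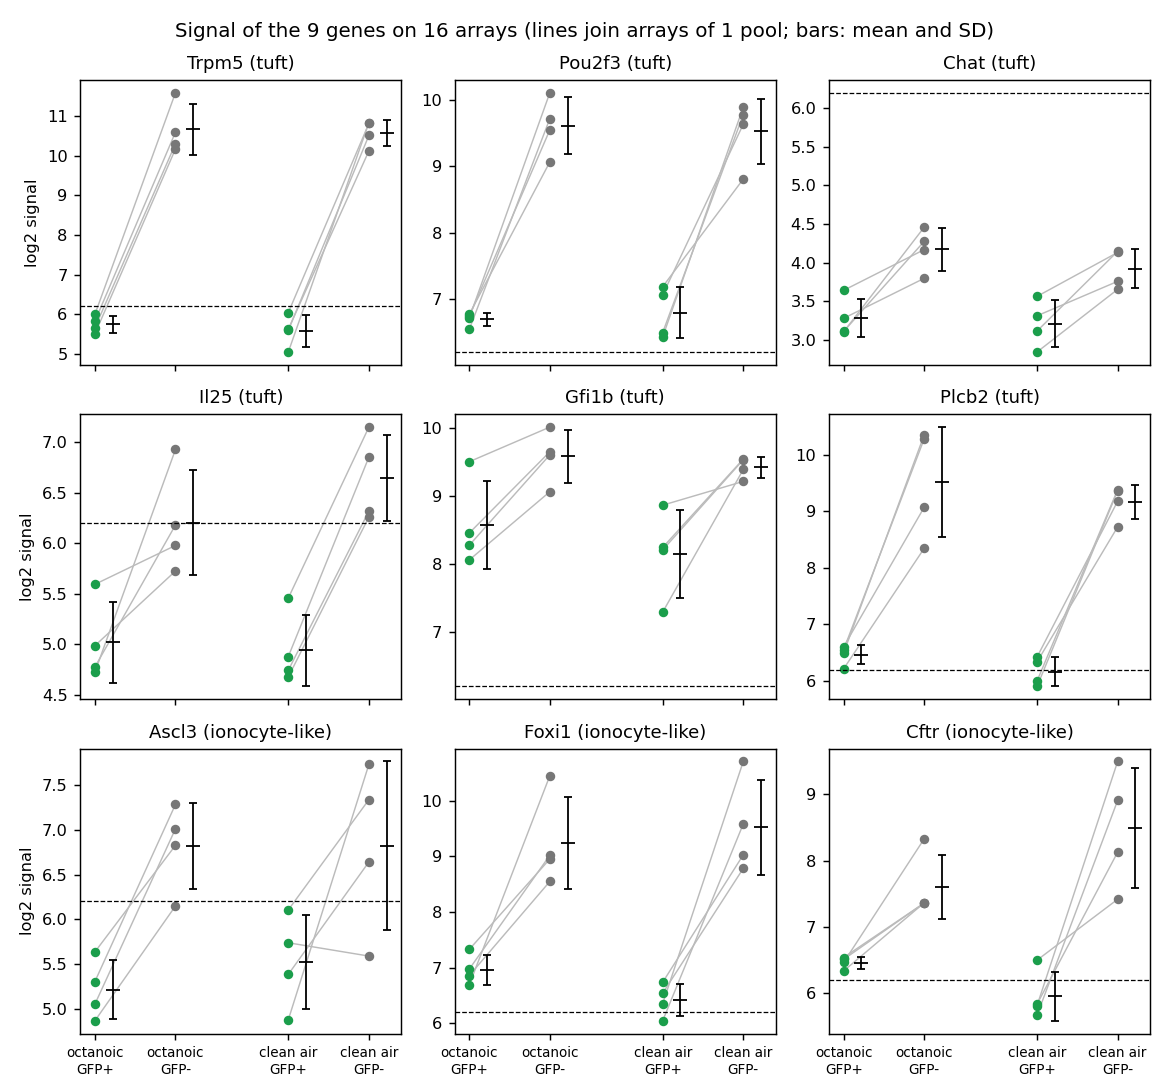
Log2 signal (vertical axis) of each gene on the 16 arrays, by group. Points are arrays, grey lines join the GFP+ and GFP- array of 1 pool, bars give mean and SD (n = 4), and the dashed line is the background of 6.20 log2. Trpm5 shows the widest gap between the sorted samples, Chat lies under the background on every array, and the GFP- points of Foxi1 are spread more widely than those of Trpm5 in both treatments.

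Values are log2 signals, set beside a background of 6.20 log2, the median signal of 5222 negative controls over all arrays. On single arrays this median ran from 5.80 to 6.77 log2. With octanoic acid it was 6.21 to 6.71 on GFP+ arrays and 5.80 to 6.02 on GFP- arrays. With clean air it was 6.28 to 6.44 on GFP+ arrays and 5.88 to 6.77 on GFP- arrays. Every GFP+ array thus had a median above 6.20. The median was highest on the GFP- array of clean air pool 4 and next, at 6.71, on the GFP+ array of octanoic acid pool 3. On the latter Pou2f3, Plcb2 and Cftr lay below the array's own median. Plcb2 also did so on the GFP+ array of octanoic acid pool 1, at 6.21 against 6.24. The octanoic acid folds of these genes may therefore be lower bounds. The quartiles of these controls were 4.98 and 7.54 log2, and a small share of them read above 10.41. Of the genes followed here, only Trpm5 had GFP- means above 10.41 log2. A signal above 6.20 therefore need not mean expression, and above the background means only above this median. A group is called at the background where its mean does not exceed 6.20 by at least its SD. Where only the dimmer group is there, the fold is given as a lower bound.

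Trpm5, the cation channel that depolarizes tuft cells, read 5.51, 6.0, 5.83 and 5.66 log2 in GFP+ cells of octanoic acid pools 1 to 4, against 10.17, 11.59, 10.59 and 10.30 in their GFP- cells. With clean air it read 5.63, 6.05, 5.05 and 5.60 in GFP+ cells, against 10.12, 10.81, 10.83 and 10.51 in GFP- cells. Every GFP+ array was under the background and every GFP- array was at least 4 log2 brighter than its GFP+ partner. The within-pool difference was -4.91 ± 0.45 log2 with octanoic acid (SD, n = 4; limma adjusted p = 5.42e-08) and -4.99 ± 0.56 with clean air (adjusted p = 6.09e-08). In GFP+ cells Trpm5 was thus lower by a factor of at least 22 with octanoic acid and 20.6 with clean air. Counted from the lowest difference of all genes, Trpm5 ranked 141 with octanoic acid and 124 with clean air.

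Plcb2, the phospholipase upstream of Trpm5 in taste-like signalling, followed it with a smaller gap. It read 6.21, 6.50, 6.60 and 6.55 log2 in GFP+ cells, against 8.35, 10.35, 9.07 and 10.28 in GFP- cells with octanoic acid. With clean air GFP+ cells gave 6.34, 6.42, 5.90 and 6.0 log2, and GFP- cells 8.72, 9.18, 9.36 and 9.38. The sorted samples did not overlap, and GFP- pools differed more from each other with octanoic acid, with pools 2 and 4 high and pool 1 low. In GFP+ cells Plcb2 was 8.26-fold lower with octanoic acid (-3.05 ± 0.87 log2, adjusted p = 1.46e-05) and at least 7.31-fold lower with clean air (-2.99 ± 0.51, adjusted p = 1.87e-05). Plcb2 is also a gene of leukocytes, whose markers moved the same way. The summed signal of 4 pan-leukocyte markers in GFP- pools 1 to 4 was 14.03, 15.72, 14.95 and 16.16 log2 with octanoic acid and 14.18, 14.77, 14.97 and 15.11 with clean air. Pool 1 was lowest for Plcb2 and for these markers in both treatments. The part of leukocyte RNA in the Plcb2 signal was not tested.

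Pou2f3, without which tuft cells do not form in mice, read 6.77, 6.71, 6.54 and 6.74 log2 in GFP+ cells, against 9.07, 10.11, 9.72 and 9.55 in GFP- cells with octanoic acid. With clean air the values were 6.49, 6.43, 7.06 and 7.19 in GFP+ cells, against 9.78, 9.90, 9.64 and 8.81 in GFP- cells. The groups were well apart, with clean air pool 4 giving both the highest GFP+ and the lowest GFP- value of its treatment. In GFP+ cells Pou2f3 was 7.59-fold lower with octanoic acid (-2.92 ± 0.48 log2, adjusted p = 1.48e-05) and 6.68-fold lower with clean air (-2.74 ± 0.84, adjusted p = 2.77e-05). Its GFP+ levels, 6.69 ± 0.10 and 6.79 ± 0.39 log2, stood above the background median but below the upper quartile of the negative controls.

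Gfi1b, a repressor known from erythroid and megakaryocytic cells and also from tuft cells, was above the background in all 4 groups. GFP+ cells gave 8.06, 8.28, 9.51 and 8.46 log2 and GFP- cells 9.06, 9.61, 10.01 and 9.65 with octanoic acid. GFP+ cells gave 7.29, 8.24, 8.87 and 8.21 log2 and GFP- cells 9.39, 9.54, 9.22 and 9.53 with clean air. Pool 3 had the highest GFP+ value in both treatments, and with octanoic acid it overlapped the GFP- range. The difference was -1.01 ± 0.36 log2 with octanoic acid, 2.01-fold lower (adjusted p = 0.0137), and -1.27 ± 0.72 with clean air, 2.41-fold lower (adjusted p = 0.00337). Without octanoic acid pool 2 or pool 4 the octanoic acid difference no longer passed, with adjusted p values of 0.0539 and 0.0639. Of 6 measured erythroid and megakaryocyte markers, octanoic acid pools had 2 lower and 1 higher in GFP+ cells, and clean air pools had 1 lower. Their summed signal ranged from 9.64 to 10.7 log2 in GFP+ cells and from 9.76 to 10.9 in GFP- cells with octanoic acid, and from 9.60 to 10.1 and from 9.72 to 10.5 with clean air. Alas2, the first enzyme of heme synthesis in erythroid cells, was above the background in all groups and was lower in GFP+ cells, 3.2-fold with octanoic acid (adjusted p = 0.000246) and 2.84-fold with clean air (adjusted p = 0.000619). The erythroid factor Gata1 was at least 1.57-fold lower with octanoic acid (adjusted p = 0.0351), and its -0.24 ± 0.35 log2 with clean air did not pass. The platelet integrin Itga2b was 1.64-fold higher with octanoic acid (adjusted p = 0.0398) and stood at 0.34 ± 0.38 with clean air. Klf1, Epor and Pf4 lay at the background in all 4 groups. The part of such cells in the Gfi1b signal was not tested.

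The secreted signals of tuft cells were near the limit of the array. Il25, the cytokine by which gut tuft cells call type 2 lymphoid cells, read 4.99, 4.72, 5.59 and 4.77 log2 in GFP+ cells, against 5.73, 6.93, 5.98 and 6.18 in GFP- cells with octanoic acid. With clean air it read 4.74, 5.46, 4.68 and 4.88 in GFP+ cells, against 6.32, 7.15, 6.26 and 6.85 in GFP- cells. No GFP+ array reached the background, and all GFP- arrays with clean air but only 1 with octanoic acid exceeded it. Il25 differed by -1.18 ± 0.80 log2 with octanoic acid (adjusted p = 0.00581), where both sorted samples were at the background and no fold is given. It differed by -1.71 ± 0.19 with clean air (adjusted p = 0.00045), at least 1.36-fold lower in GFP+ cells.

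Chat, the enzyme that makes acetylcholine, was under the background on all 16 arrays. It read 3.10, 3.11, 3.28 and 3.64 log2 in GFP+ cells, against 4.46, 4.28, 3.80 and 4.17 in GFP- cells with octanoic acid, and 3.56, 3.31, 2.84 and 3.11 in GFP+ cells, against 4.13, 3.76, 3.65 and 4.15 in GFP- cells with clean air. The GFP+ arrays were lower in every pool, by -0.89 ± 0.43 log2 (adjusted p = 0.00508) and -0.71 ± 0.26 (adjusted p = 0.0199), but signals so dim give no fold. With clean air the call was lost without pool 1, pool 3 or pool 4 of that treatment, with adjusted p values of 0.0509, 0.079 and 0.112.

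**Figure D2:**
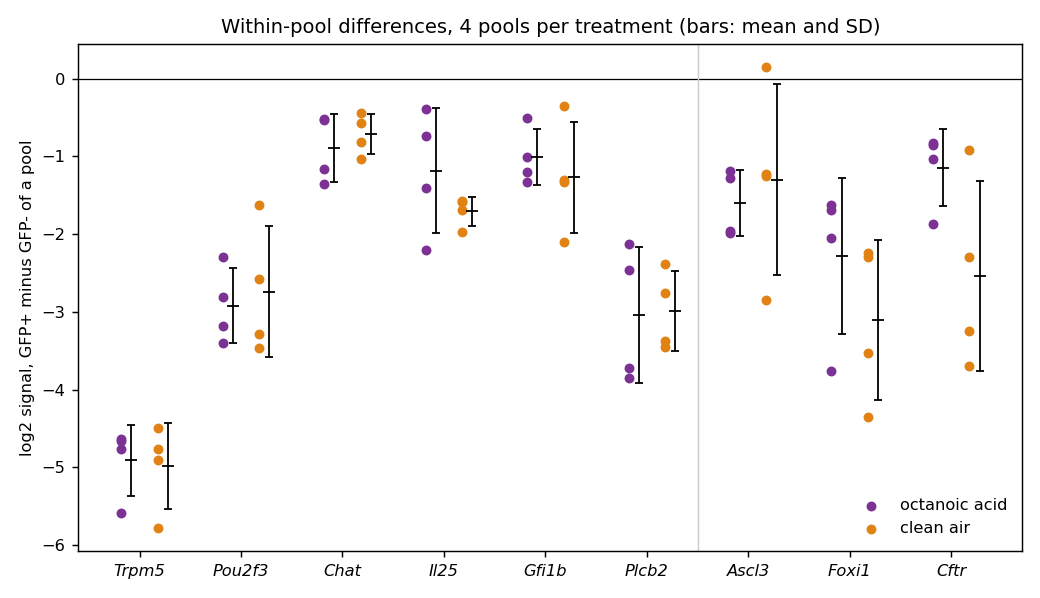
Difference in log2 signal between the GFP+ and the GFP- array of each pool (vertical axis) for the 9 genes, with octanoic acid left of clean air. Points are pools and bars give mean and SD (n = 4). All points but 1, Ascl3 in clean air pool 4, lie under 0, and Trpm5 lies lowest.

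Foxi1, the ionocyte master regulator, had a within-pool difference that varied more from pool to pool than that of Trpm5. It read 6.69, 6.86, 6.97 and 7.33 log2 in GFP+ cells, against 10.45, 8.55, 9.02 and 8.95 in GFP- cells with octanoic acid. With clean air it read 6.35, 6.04, 6.54 and 6.74 in GFP+ cells, against 10.70, 9.58, 8.78 and 9.03 in GFP- cells. GFP- cells of pool 1 were the brightest in each treatment. In GFP+ cells Foxi1 was 4.86-fold lower with octanoic acid (-2.28 ± 1.00 log2, adjusted p = 0.00146) and at least 8.37-fold lower with clean air (-3.10 ± 1.02, adjusted p = 0.000146).

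Cftr, the apical chloride channel, had the same brightest GFP- pool. GFP+ cells gave 6.46, 6.51, 6.53 and 6.33 log2 and GFP- cells 8.33, 7.36, 7.36 and 7.36 with octanoic acid, so 3 pools were nearly equal and pool 1 stood above them. GFP+ cells gave 5.81, 5.83, 5.66 and 6.49 log2 and GFP- cells 9.50, 8.13, 8.91 and 7.41 with clean air. The sorted samples did not overlap in either treatment. The difference of -2.54 ± 1.23 log2 with clean air passed (adjusted p = 0.000406, at least 4.64-fold lower in GFP+ cells). The difference of -1.14 ± 0.49 with octanoic acid, 2.21-fold, did not (adjusted p = 0.0524), although it passed without clean air pool 1 (adjusted p = 0.0348) or clean air pool 4 (adjusted p = 0.00994), which share its estimate of the spread.

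Ascl3, a transcription factor of microvillous cells and of gland ducts, was dim. It read 5.30, 4.87, 5.64 and 5.05 log2 in GFP+ cells, against 7.28, 6.15, 6.83 and 7.01 in GFP- cells with octanoic acid. That made it lower by at least 1.53-fold in GFP+ cells (-1.60 ± 0.42 log2, adjusted p = 0.00884). With clean air GFP+ cells gave 6.10, 4.88, 5.38 and 5.74 log2 and GFP- cells 7.34, 7.73, 6.64 and 5.59, so pool 4 went against the others by 0.15. Both sorted samples were at the background there, and no fold is given. The clean air difference of -1.30 ± 1.23 (adjusted p = 0.0296) lost its call without pool 1, pool 2 or pool 3 of that treatment, with adjusted p values of 0.0809, 0.13 and 0.0819, and stood at -0.78 without pool 2.

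For each of the 9 genes the order of levels was the same: both GFP- groups above both GFP+ groups. Within a sorted fraction limma called none of the 9 genes between the treatments. GFP- levels with octanoic acid and with clean air were 10.66 ± 0.64 and 10.57 ± 0.33 log2 for Trpm5, 9.61 ± 0.43 and 9.53 ± 0.49 for Pou2f3, and 9.24 ± 0.83 and 9.52 ± 0.85 for Foxi1 (SD, n = 4).

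The comparisons of octanoic acid with clean air ask whether the odorant changed these genes. limma called none of the 9 in the within-pool differences, in GFP+ cells or in GFP- cells, and 0.0% of all genes in each. Adjusted p values of the 9 ran from 0.94 to 0.991, from 0.955 to 0.982 and from 0.985 to 1. At an unadjusted p of 0.05 the 3 comparisons held 871, 716 and 741 of all genes, or 4.47%, 3.67% and 3.8%. Of the 9 genes 1, 2 and 1 were among them.

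Cftr was the gene of the 9 with the smallest unadjusted p between treatments. Its sort difference was smaller with octanoic acid by 1.39 log2 (SE 0.52, unadjusted p = 0.020, adjusted p = 0.94). In GFP- cells it read 7.60 ± 0.49 log2 with octanoic acid and 8.49 ± 0.91 with clean air (-0.89, SE 0.40, unadjusted p = 0.0479, adjusted p = 0.985). In GFP+ cells it read 6.46 ± 0.09 and 5.95 ± 0.37 (0.51, SE 0.20, unadjusted p = 0.0256, adjusted p = 0.955). The GFP- arrays of the treatments overlapped, since clean air pool 4, at 7.41, lay within the octanoic acid range. Foxi1 had an odor effect of 0.54 log2 in GFP+ cells (SE 0.20, unadjusted p = 0.0211, adjusted p = 0.955). For Trpm5 the effect on the sort difference was 0.07 log2 (SE 0.32), for Pou2f3 -0.18 (SE 0.40) and for Plcb2 -0.05 (SE 0.41), each less than its error.

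Other genes known from tuft cells were lower in GFP+ cells as well, though not those of every function. Of 43 measured genes on 4 lists, 24 were lower and 2 were higher with octanoic acid, and 23 were lower and none was higher with clean air. Of all genes 10.9% were lower and 6.26% higher with octanoic acid, and 9.58% and 5.83% with clean air. The same shares stand beside the counts of each list below. The 23 were lower in both treatments. The median difference of the 43 was -1.01 log2 with octanoic acid and -1.10 with clean air. In 17 of the 43 the GFP- cells were at the background in both treatments. Itpr3 and Ptgs1, also listed, were not analysed here.

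Among taste-type signalling genes 2 of 11 were lower and 2 higher with octanoic acid, and 1 was lower with clean air, with medians of 0.27 and 0.15 log2. In 7 of the 11 the GFP- cells were at the background in both treatments, which limits what this list can show. Gnat3, the taste G protein gustducin, differed by -2.19 ± 0.66 log2 with octanoic acid (adjusted p = 2.5e-05) and -2.10 ± 0.27 with clean air (adjusted p = 3.97e-05), with its GFP- cells at the background. The fatty acid receptor Ffar2 was at least 1.54-fold lower with octanoic acid (adjusted p = 0.00272), and its -0.54 ± 0.46 with clean air did not pass. Ffar3 was higher by 0.81 ± 0.65 log2 with octanoic acid (adjusted p = 0.0299), with both sorted samples at the background, and the G protein subunit Gnb3 was 1.53-fold higher (adjusted p = 0.0296). With clean air Ffar3 stood at 0.58 ± 0.33 and Gnb3 at 0.15 ± 0.34, and neither passed. Tas1r1, part of the umami receptor, stood at 0.64 ± 0.22 and 0.25 ± 0.57 and passed in neither treatment. Gng13, a gamma subunit of taste cells that olfactory neurons also use, was bright in all groups, at 15.28 log2 in GFP+ cells and 14.85 in GFP- cells with octanoic acid. Gnb3 and Gng13 were picked for mention after their values were seen.

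Of 9 measured genes for lipid mediators, cytokines and their receptors 7 were lower in each treatment, with medians of -1.59 log2 with octanoic acid and -1.91 with clean air. Alox5, the first enzyme of leukotriene synthesis, was lower in GFP+ cells by at least 10.7-fold with octanoic acid and 7.62-fold with clean air. Its partner Alox5ap was 14.5-fold and 11.8-fold lower. Pla2g4a, which frees arachidonic acid, was at least 4.39-fold and 4.32-fold lower. Il17rb, the Il25 receptor subunit, was at least 3.17-fold and 3.11-fold lower. The adjusted p of these 4 genes ran up to 1.55e-05. Alox5 and Alox5ap are also strongly used by neutrophils and other leukocytes, which are described with the markers.

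Structural and other markers of tuft cells were lower in 11 of 15 cases in each treatment, with medians of -3.22 and -2.84 log2. Sh2d7, an adaptor of tuft cells, was lower by at least 5.94-fold with octanoic acid and 5.38-fold with clean air. Rgs13, a brake on G protein signalling known from tuft, B and mast cells, was at least 19.6-fold and 24.0-fold lower. Lrmp was at least 12.6-fold and 16.3-fold lower. Cd24a, which leukocytes and epithelial precursors also carry, was lower by at least 51.9-fold and 35.8-fold. Dclk1, Espn, Ly6g6f and Nrgn passed in neither treatment. Of these Dclk1 was above the background in all groups, at -0.65 ± 0.94 log2 with octanoic acid and -0.66 ± 0.68 with clean air. The pan-leukocyte markers moved the same way as the lower genes, and the part of leukocyte RNA in this list was not tested. The fixed tuft markers Sh2d6 and Avil, an actin-binding protein of the apical tuft, lay above the background in GFP- cells and in octanoic acid pools were lower in GFP+ cells by at least 1.69-fold and 1.43-fold. In clean air pools these bounds were 1.68-fold for Sh2d6 and 1.81-fold for Avil. With Gnat3, these are the 3 genes that the fixed tuft marker list adds to the 6 tuft genes already described. All 3 were lower in both treatments, Gnat3 with every group at the background. The list was chosen with earlier results of these data known, so this count is no separate support.

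Of 8 measured regulators 4 were lower in each treatment. Sox9 was 21.0-fold and 19.1-fold lower, Spib at least 6.72-fold and 5.55-fold, and Runx1 at least 6.26-fold and 4.12-fold, while Hmx2 differed by -0.89 ± 0.24 and -1.10 ± 0.49 log2 with both sorted samples at the background. Sox9 is also on the Bowman gland list, and Spib and Runx1 are also factors of blood cells. Acetylcholine genes gave no such pattern. None of 9 was lower in either treatment, and 8 had GFP- cells at the background. Ache was higher by 0.98 ± 0.26 log2 with clean air (adjusted p = 0.00528) with both samples at the background, and its 0.39 ± 0.54 with octanoic acid did not pass. Slc44a4, a choline-related transporter, stood at 0.49 ± 0.28 and 0.43 ± 0.21, Chrm1 at 0.20 ± 0.58 and 0.31 ± 0.40, and the choline transporter Slc5a7 at 0.21 ± 0.42 and 0.26 ± 0.12, none of which passed.

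**Figure D3:**
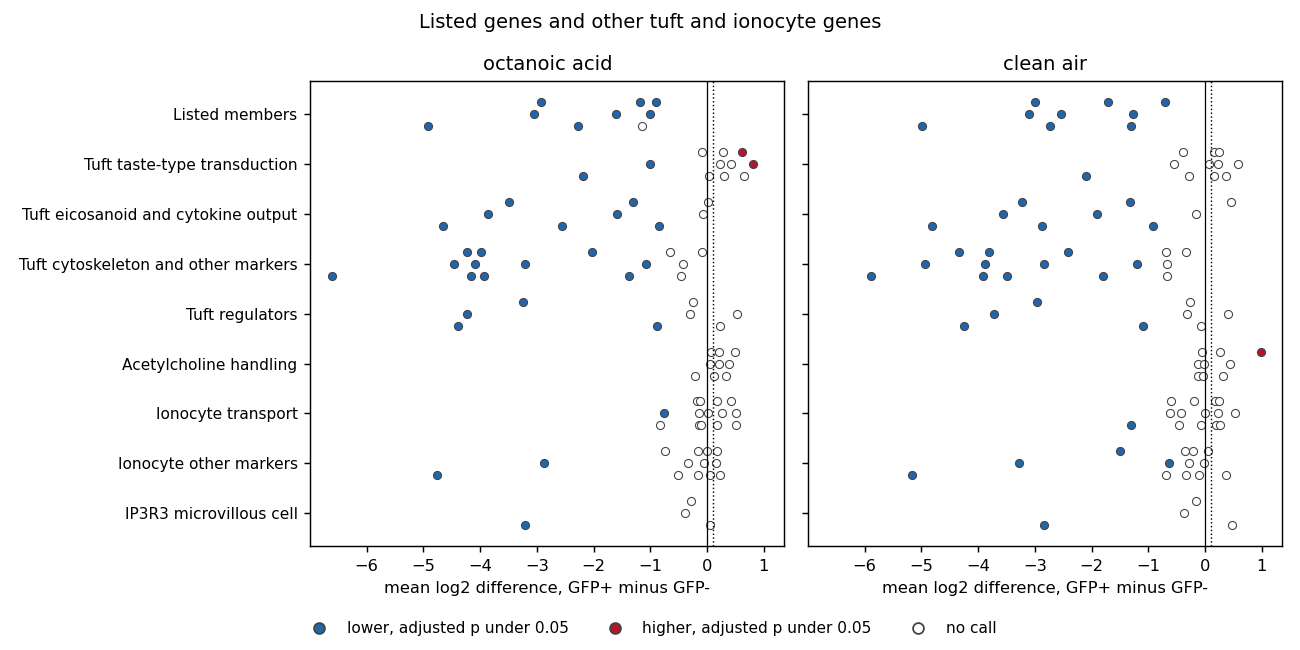
Mean log2 difference between GFP+ and GFP- cells (horizontal axis) of the 9 genes and of the other measured genes of each list, with octanoic acid on the left and clean air on the right. Filled points passed an adjusted p of 0.05 and the dotted line is the median of all genes, 0.11. Points of the tuft output and marker lists reach far to the left, while those of the acetylcholine and ionocyte transport lists gather near 0.

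Of 27 other ionocyte genes 3 were lower with octanoic acid, a share near the 10.9% of all genes, and 5 with clean air, where 9.58% of all genes were. None was higher, the medians were -0.10 and -0.21 log2, and 17 had GFP- cells at the background in both treatments. Hepacam2, an immunoglobulin-like membrane protein found in tuft cells as well as ionocytes, differed most, by -4.75 ± 0.11 log2 with octanoic acid (26.9-fold lower in GFP+ cells, adjusted p = 8.95e-09) and -5.17 ± 0.21 with clean air (at least 35.5-fold, adjusted p = 4.81e-09). Stap1, an adaptor also known from B cells, was at least 5.92-fold and 7.55-fold lower. Coch stood at -0.75 ± 1.23 with octanoic acid, which did not pass, and was 2.82-fold lower with clean air (adjusted p = 0.042). Rasd1 stood at -0.51 ± 0.45 and, passing with both samples at the background, at -0.64 ± 0.33.

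Of the proton pump and transporter genes, 1 of 14 was lower in each treatment, again near the share of all genes, and it was not the same one. Carbonic anhydrase Car2 was 1.69-fold lower with octanoic acid (adjusted p = 0.0296) and stood at -0.46 ± 0.26 with clean air. Atp6v0d2 differed by -1.30 ± 1.17 with clean air (adjusted p = 0.0409) and stood at -0.84 ± 0.77 with octanoic acid, at the background in all groups. Atp6v1e2 stood at 0.42 ± 0.34 and 0.52 ± 0.38, and Bsnd at -0.18 ± 0.44 and -0.61 ± 0.50. Of the fixed ionocyte markers Atp6v1b1, a proton pump subunit, and Bsnd, a chloride channel subunit, were at the background in all 4 groups, so the name ionocyte-like rests on Foxi1, Cftr and the dim Ascl3. P2ry14 was not analysed here. A short list for microvillous cells with the type 3 inositol trisphosphate receptor had 2 of 5 lower in each treatment, Ascl3 and the keratin Krt18, which was 9.29-fold and 7.17-fold lower. Its other genes Cd36, at -0.38 ± 0.43 and -0.37 ± 0.24, Npy, at 0.05 ± 0.44 and 0.47 ± 0.43, and Nt5e, at -0.29 ± 0.20 and -0.17 ± 0.24, did not pass.

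Markers of several other cell types were also lower in GFP+ cells, beside 10.9% of all genes with octanoic acid and 9.58% with clean air. All 4 pan-leukocyte markers were lower in GFP+ cells in both treatments: their summed signal ran from 8.83 to 10.7 log2 in GFP+ cells and from 14.03 to 16.2 in GFP- cells with octanoic acid, and from 8.98 to 10.1 and from 14.2 to 15.1 with clean air. All 8 neutrophil markers were lower too, with sums of 8.74 to 11.5 log2 in GFP+ cells and 18.4 to 20.0 in GFP- cells with octanoic acid and 8.95 to 10.4 and 17.9 to 19.4 with clean air. Of 6 mast cell and basophil markers 3 were lower in each treatment, as were 4 of 5 B cell markers, 4 of 5 macrophage markers, 4 of 4 progenitor markers and 3 of 5 immature neuron markers. By contrast none of 7 mature neuron markers was lower and 1 was higher in each treatment, and none of 3 horizontal basal cell markers passed, all with GFP- cells at the background. Of 7 sustentacular markers 1 was lower with octanoic acid and 2 with clean air, and of 6 Bowman gland markers 2 in each. The GFP+ array of octanoic acid pool 3 had the highest sustentacular sum of all arrays, 16.5 log2 against 13.4 to 14.1 on the other GFP+ arrays with octanoic acid, and also the highest GFP+ signal of Gfi1b. Without that pool and clean air pool 4, left out together after the data were seen, 9 of the 9 genes were lower in GFP+ cells with octanoic acid and 8 with clean air. Of all 19505 genes 1814 and 1551 were then lower. The part of other cell types in the signals of genes that they share with tuft cells was not tested.

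**Figure D4:**
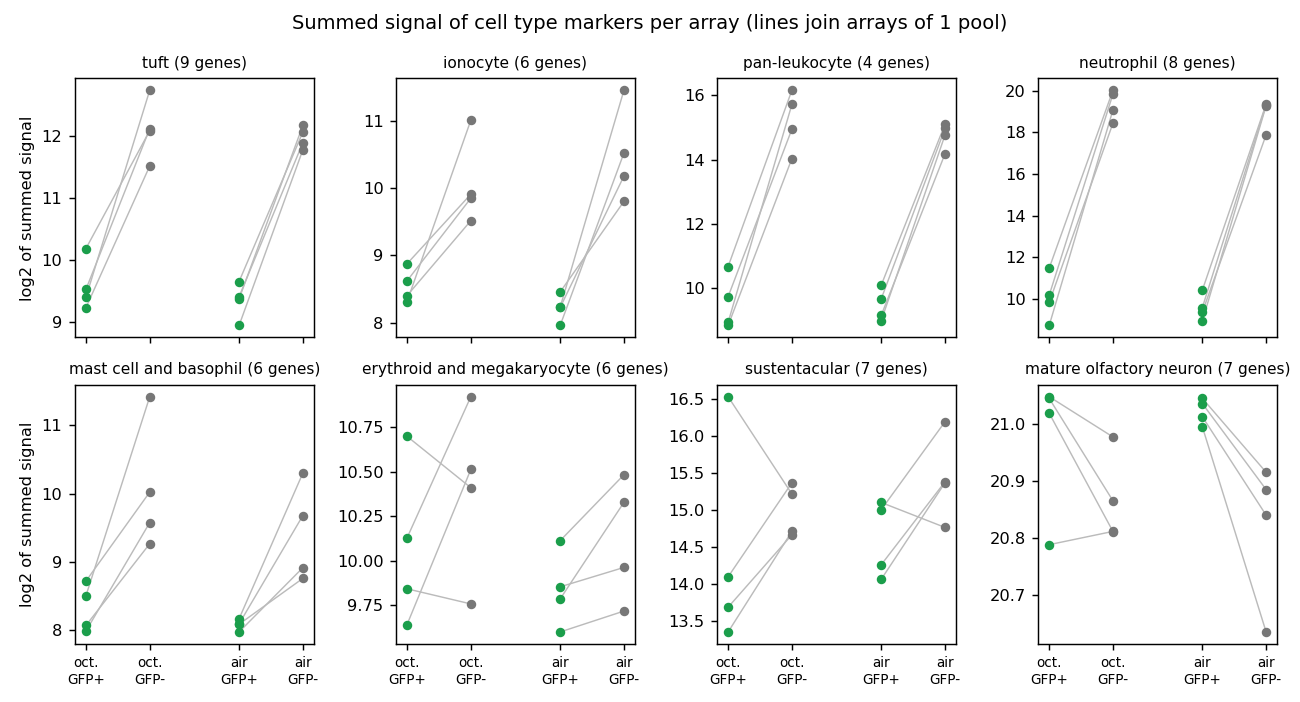
Log2 of the summed signal of fixed cell type markers (vertical axis) on each array, by group, with octanoic acid (oct.) left of clean air (air) and grey lines joining the arrays of 1 pool. Tuft, ionocyte, leukocyte and neutrophil sums are lower on the GFP+ than on the GFP- array of every pool, while mature neuron sums lie within a range of less than 1 log2.

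The genes most like the mean of the 6 tuft genes over all 16 arrays, among 11443 named genes above the background in GFP- cells, were Plk2 (Pearson r = 0.993), Sh2d7 (0.990), H2-K1 (0.990), Stfa2l1 (0.990) and S100a11 (0.988). Of these only Sh2d7 is on a tuft list used here. Those most like the mean of the 3 ionocyte genes were Pam (0.963), the receptors Olfr957 (0.951), Olfr877 (0.948) and Olfr600 (0.948), and Gap43 (0.947), a gene of growing axons. These arrays share the split into GFP+ and GFP- cells. Over the 8 GFP- arrays alone the closest to the tuft mean were Larp7 (r = 0.987), Styk1 (0.968), Swap70 (0.936), Abca1 (0.929) and Asb9 (0.929), and to the ionocyte mean Aida (0.991), Timm22 (0.988), Plppr1 (0.976), Mturn (0.964) and Rpp38 (0.960). Of these last genes Swap70, at 6.48 log2 in GFP+ and 7.83 in GFP- cells, and Abca1, at 6.10 and 8.45, were dimmer in GFP+ cells, and the rest were about as bright in both. The best of 11443 genes over 8 arrays can reach a high r without any link, and no test was run.

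Arrays have no read depth, and 4 pools per group limit the precision. Over all genes limma called 1221 as higher in GFP+ cells and 2126 as lower in octanoic acid pools, and 1138 and 1868 in clean air pools. With each array centred on its median these were 7791 and 1715, and 6082 and 1571, and the median difference of all genes became 0.42 and 0.38 log2. Quantile normalization gave 2587 and 2026, and 1813 and 1783. Under these scalings and under receptor centring all 9 genes were still on the lower side in GFP+ cells in both treatments.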

How the data were processed

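All 16 samples of the series were used, in 4 groups of 4. Per the labels, biotinylated cRNA was hybridized; per the submitters' processing notes, the authors used Affymetrix Expression Console, with version, summary method and background step not given in the sources used here. The deposited values are on a log2 scale, read from their range of 2.13 to 19.5. Of 22206 gene probe sets, 19572 had 1 symbol and 2634 none and were left out; the brightest probe set per gene left 19505 genes.

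By the mouse numbers, the GFP+ and GFP- samples with 1 replicate number share their 3 mice, so two-sided tests with limma 3.58.1 (R 4.3.3) used the 8 within-pool differences, GFP+ minus GFP-: each treatment's mean against 0 and octanoic acid minus clean air. GFP+ and GFP- arrays were also compared between treatments. Benjamini-Hochberg adjustment ran over the 19505 genes, with calls at 0.05; p values measure the spread between pools. The fits were tested on simulated data. Deviations of same-numbered octanoic acid and clean air pools correlated at 0.179, 0.110, 0.237 and 0.100 for the differences, at 0.371, 0.100, 0.219 and 0.138 for GFP+ arrays, and at 0.408, 0.100, -0.0986 and 0.153 for GFP- arrays, and the labels name no shared batch.

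The members and lists were chosen with earlier results of these data known. Named were all 9 genes, the 4 genes of each list with the largest mean difference over the 8 pools, and the 5 genes most like each class. Alternatives were 3 scalings, a filter on dim genes, another variance prior, the mean of probe sets, the block, and leaving out pools.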

Additional observations from a re-analysis of the deposited data

Results flagged for a closer look

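Cftr in GFP- cells of octanoic acid pool 1 read 8.33 log2, apart from the 3 other pools of its group, which all read 7.36. The gap to the nearest pool exceeded Dixon's critical value for 4 samples. It was the 1 such value among 36 combinations of gene and group, where chance flags about 1 in 20. Foxi1 was also highest in this pool, at 10.45 log2.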

How the results depend on the processing

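The number of the 9 genes lower in GFP+ cells was 7 to 9 under every alternative. Of all genes 1666 to 2127 were lower with octanoic acid and 1514 to 1920 with clean air. These were out of 19505 tested, or 12487 with the filter on dim genes. That filter left out Chat, so only 8 of the 9 genes were tested under it. Between treatments 0 of the 9 and 0 of all genes were called under each. Leaving out 1 pool at a time gave 7 to 9 with octanoic acid and 7 to 9 with clean air. Lost calls were those of Chat with clean air under array median centring (-0.44, adjusted p = 0.0736) and receptor centring (adjusted p = 0.0507), Ascl3 with clean air under quantile normalization (-1.11, adjusted p = 0.0589) and Gfi1b with octanoic acid under receptor centring (adjusted p = 0.0597). Cftr passed with octanoic acid with the filter on dim genes (adjusted p = 0.0483), without the pairing of GFP+ and GFP- arrays (no replicate block, adjusted p = 0.0301) and without octanoic acid pool 3 and clean air pool 4 together (adjusted p = 0.0222); Chat then lost its clean air call (adjusted p = 0.0942). The cause was not tested. With a replicate block on the number shared by octanoic acid and clean air pools 0 of the 9 and 0 of all genes were called, with smallest adjusted p values of 0.781, 0.826 and 0.915.

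Uncalled odor effects near 0 changed sign when 1 pool was left out. Ranges in the sort difference were -0.19 to 0.30 for Trpm5, -0.43 to 0.19 for Pou2f3, -0.02 to 0.56 for Gfi1b, -0.36 to 0.22 for Plcb2 and -0.82 to 0.18 for Ascl3. In GFP+ cells they were -0.01 to 0.32 for Trpm5, -0.22 to 0.03 for Pou2f3, -0.05 to 0.19 for Chat and -0.11 to 0.25 for Il25. In GFP- cells they were -0.21 to 0.26 for Trpm5, -0.16 to 0.26 for Pou2f3, -0.42 to 0.30 for Ascl3 and -0.68 to 0.11 for Foxi1. Receptor centring turned Plcb2 in the sort difference (0.09) and Trpm5 (-0.01) and Pou2f3 (-0.02) in GFP- cells, and quantile normalization turned Il25 in GFP+ cells (-0.03). Without octanoic acid pool 3 and clean air pool 4 the sort difference turned for Pou2f3 (0.27) and Ascl3 (0.04), GFP+ cells for Pou2f3 (0.08) and Il25 (-0.13), and GFP- cells for Pou2f3 (-0.19). Signals of Chat, Il25 and Ascl3 at or near the background limit what the arrays can show of them.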
